A study of Mus musculus with 6 samples.

Results

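Transcripts of 29 genes for the synthesis, uptake and efflux of cholesterol were followed in isolated mouse pancreatic islets kept for 24 h in CMRL medium at high (stimulating) or low (non-stimulating) glucose. The genes were taken as the rows of the deposited count table that carry a listed symbol in GENCODE M21 on GRCm38. All 29 were found among the 46983 genes of the table, and all 29 passed the filter on low counts. There were 3 libraries from islets at high glucose and 3 from islets at low glucose, and every islet preparation was wild type. Islets are the endocrine clusters of the pancreas and hold the insulin-secreting beta cells. The sources used here do not give the glucose concentrations, the mouse strain, sex and age, or how many animals stand behind a library. Nor do they say whether replicates were separate cultures or animals, so the p-values below measure the spread between these libraries, which may be technical.

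Cholesterol is made from acetyl-CoA through mevalonate, squalene and lanosterol, mostly in the endoplasmic reticulum. When sterols in that membrane run low, the escort protein SCAP carries the transcription factor SREBP2 to the Golgi, where it is cut free to switch on the enzymes of the pathway. INSIG proteins hold SCAP back when sterols are plentiful, and the nuclear receptor LXR then drives the export pumps ABCA1 and ABCG1. In beta cells, cholesterol in the plasma membrane and granule membranes bears on insulin secretion.

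The libraries held between 10596020 and 15846235 counts, of which the 29 genes took 0.115% to 0.152% at high glucose and 0.0353% to 0.0638% at low glucose. Most genes shifted the same way on this scale. With library totals the median log2 fold change (high minus low) was 1.54 over the 29 genes and 1.16 over all genes tested. The shares of counts that went to markers of several cell types differed between the groups. Acinar markers, mostly genes of pancreatic digestive enzymes, took 12.1% to 23.9% of counts at high glucose and 46.9% to 61.9% at low glucose, and 18 of 21 were lower at high glucose. Islet hormone and granule genes took 3.93% to 10.5% at high and 2.28% to 4.84% at low glucose, and 2 of 13 were called higher. Of 10 beta cell identity genes 6 were called lower, the largest fall being that of Slc2a2, the islet glucose transporter gene, at a log2 fold change of -5.51. Those not called were Nkx6-1 (-1.01), G6pc2 (0.0012), Isl1 (0.36) and Neurod1 (0.67). The summed share of the list was 0.0862% to 0.2498% at high and 0.0721% to 0.193% at low glucose. In every library G6pc2 had the most counts of the list. Lower calls were also made for 4 of 9 stellate and fibroblast markers (0.00606% to 0.0474% of counts at high and 0.0175% to 0.0354% at low glucose) and 2 of 8 endothelial markers (0.0204% to 0.0554% at high and 0.0157% to 0.0325% at low glucose). Of 8 duct markers, 4 were higher at high glucose (0.584% to 0.660% of counts, against 0.0378% to 0.0467% at low glucose). Among 10 macrophage and leukocyte markers 2 were called higher and 0 lower (0.0119% to 0.0860% of counts at high and 0.0330% to 0.0560% at low glucose). The summed share of intestinal epithelial markers was 0.0214% to 0.0386% at high and 0.105% to 0.514% at low glucose. These shares are of all counts of a library, whereas the calls come from the TMM-scaled test described below, so the 2 can differ in direction. By that test 13.3% of all genes tested were higher and 14.2% lower. In such bulk RNA, fewer cells of a type and less RNA per cell cannot be told apart. The part of these cell types in the changes of the cholesterol genes was not tested. High glucose replicate 1 stood apart from the other high glucose libraries, with a chi-square of its gene counts, per degree of freedom, of 193 and 169.9 against replicates 2 and 3, which gave 17.4 with each other. Low glucose replicate 1 gave 66.9 and 92.9 against replicates 2 and 3, which gave 28.5 with each other, and had the highest intestinal (0.514%) and endocrine hormone and granule shares (4.84%) of its group.

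Among the 29 genes, 7 rose at high glucose and 1 fell. The 7 that rose were all synthesis enzymes, namely Pmvk, Fdps, Fdft1, Sqle, Cyp51, Msmo1 and Hsd17b7, and their increases lay between 1.84-fold and 2.68-fold. The gene that fell was Insig1, the sterol-sensing retention factor, at 1.89-fold lower. A change was counted when the adjusted p of edgeR's quasi-likelihood test, corrected by Benjamini-Hochberg over all 13996 tested genes, was under 0.05. By that rule 24.1% of the 29 genes rose, against 13.3% of all genes tested, and 3.45% fell, against 14.2% of all genes tested. The median log2 fold change (high minus low) was 0.41 over the 29 genes and 0.01 over all genes tested. Of the 19 synthesis enzymes 7 rose, 0 fell and the median was 0.57 (0 fell also by DESeq2 and by limma-voom, and 1 was lower at an unadjusted p under 0.05 by edgeR).

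CPM values are counts per library of 1e+06 after TMM scaling, which sets the bulk of genes level between libraries. With library totals as the scaling, which leaves the acinar counts in the denominator, the median of all genes moved to 1.16. There 25 of the 29 genes were called higher, against 59.6% of all genes, with a median of 1.54, and 0 were called lower by edgeR (0 also at an unadjusted p under 0.05), against 4.49% of all genes. Directions below are therefore relative to the bulk of genes. Leaving out low glucose replicate 2 left 3 higher genes (4.86% of all genes) and leaving out high glucose replicate 1, the library apart, gave 10 (19.8% of all genes). Without low glucose replicate 1, 5 were higher (7.71% of all genes). DESeq2 called 7 higher and 2 lower (15.6% and 16.8% of all genes), and limma-voom 6 and 1 (10.7% and 14.0%). Without the acinar and intestinal markers in the table, 7 were higher and 1 lower, against 13.3% and 14.4% of all genes.

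**Figure D1:**
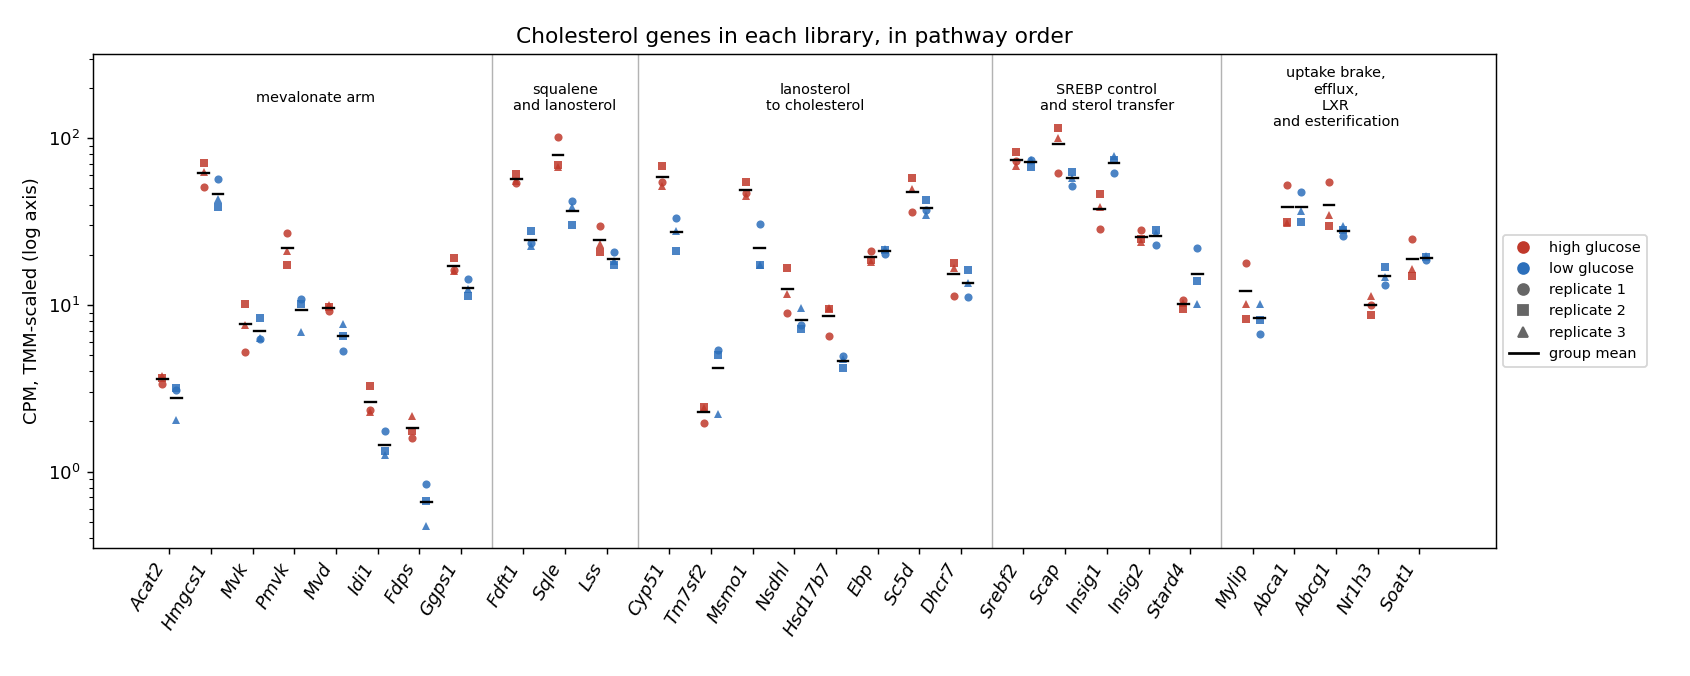
TMM-scaled CPM (log axis) of each of the 29 genes in each library, in pathway order, with high glucose (red) left of low glucose (blue), symbols for replicates 1 to 3 and a bar at the group mean. In the squalene and lanosterol group every high glucose library lies above every low glucose library, and Insig1 shows the opposite arrangement.

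The mevalonate arm turns acetyl-CoA units into farnesyl diphosphate. All 8 of its genes had a positive log2 fold change, as had 7112 of the 13996 genes tested. The test was passed by 2 of the 8 (25%, against 13.3% of all genes tested), and DESeq2 called 1 of them. The group median was 0.50. Pmvk encodes phosphomevalonate kinase and lies on chromosome 3 (89454541 to 89469013), GRCm38. It had 26.9, 17.5 and 21.1 CPM at high glucose and 10.8, 10.1 and 6.92 CPM at low glucose. All high glucose libraries were above all low glucose libraries, and Pmvk rose by 1.22 ± 0.24 on the log2 scale (± SE; edgeR adjusted p 0.0111). Fdps, the farnesyl diphosphate synthase gene on chromosome 3 (89093588 to 89101959), had 1.59, 1.75 and 2.17 CPM at high glucose and 0.837, 0.665 and 0.472 CPM at low glucose. It rose by 1.42 ± 0.38 (edgeR adjusted p 0.0295) with no overlap of the groups. Its counts were low, at 45, 35 and 43 in the high glucose libraries and 10, 4 and 3 in the low glucose libraries, and 26.7% of its exonic bases are shared with the gene Gm43738 on the same strand, so its count is uncertain. The Fdps call was lost without any library other than high glucose replicate 1 (log2 fold change 1.27 to 1.68) and with DESeq2.

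The other 6 genes of the arm did not pass. Hmgcs1, which encodes the cytosolic HMG-CoA synthase at the head of the pathway, had 51.0, 71.0 and 62.5 CPM at high glucose and 56.7, 38.6 and 43.2 CPM at low glucose. The groups overlapped, since low glucose replicate 1 lay above high glucose replicate 1, and the log2 fold change was 0.41 ± 0.20. Mvd, the mevalonate diphosphate decarboxylase gene, had 9.16, 9.69 and 9.93 CPM at high glucose and 5.27, 6.48 and 7.71 CPM at low glucose, a log2 fold change of 0.57 ± 0.21 with an edgeR adjusted p of 0.0832. Idi1, the isopentenyl diphosphate isomerase gene, had 2.33, 3.25 and 2.27 CPM at high glucose and 1.76, 1.33 and 1.26 CPM at low glucose and a log2 fold change of 0.83 ± 0.33 (edgeR adjusted p 0.105). Neither Mvd nor Idi1 overlapped between the groups. Ggps1, which leads off to geranylgeranyl diphosphate, had 16.3, 19.1 and 16.1 CPM at high glucose and 14.2, 11.3 and 12.4 CPM at low glucose. The cytosolic thiolase gene Acat2 had 3.36, 3.64 and 3.73 CPM at high glucose and 3.10, 3.16 and 2.04 CPM at low glucose. Both were likewise apart between the groups, with log2 fold changes of 0.43 ± 0.17 and 0.36 ± 0.29. In all, 6 of the 8 genes of the arm lay higher in every high glucose library than in any low glucose library, an arrangement seen for 23.5% of all genes tested. The mevalonate kinase gene Mvk overlapped, with 5.24, 10.1 and 7.61 CPM at high glucose and 6.28, 8.31 and 6.29 CPM at low glucose, and had a log2 fold change of 0.14 ± 0.29.

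Squalene synthase commits farnesyl diphosphate to sterols and squalene epoxidase acts next, and the genes of both rose. Fdft1, the squalene synthase gene on chromosome 14 (63145150 to 63179578), had 53.7, 61.1 and 55.3 CPM at high glucose and 23.5, 27.8 and 22.5 CPM at low glucose. Every high glucose library held more than any low glucose library, and Fdft1 rose by 1.21 ± 0.14 (edgeR adjusted p 0.00178). Of the 29 genes it had the smallest adjusted p, and it was called under each of the 16 alternative settings tried. Of its exonic bases, 18.3% overlap Ctsb, the cathepsin B gene, on the opposite strand, and the strand setting of the counting is not known. Sqle, which encodes the oxygen-dependent squalene epoxidase and lies on chromosome 15 (59315077 to 59331192), had 101, 69.5 and 67.4 CPM at high glucose and 41.9, 30.1 and 38.5 CPM at low glucose. The groups were apart and Sqle rose by 1.11 ± 0.21 (edgeR adjusted p 0.0101), a call lost without low glucose replicate 2 (1.00). Lss, the lanosterol synthase gene that closes the sterol rings, had 29.9, 20.9 and 23.3 CPM at high glucose and 20.7, 17.5 and 18.2 CPM at low glucose. The Lss groups were barely apart, with 20.9 CPM in the lowest high glucose library and 20.7 CPM in the highest low glucose library, and its log2 fold change of 0.39 ± 0.18 did not pass (edgeR adjusted p 0.15). Within each library, the ratio of Sqle to Lss per exonic length was 6.60, 6.46 and 5.63 at high glucose and 3.94, 3.35 and 4.11 at low glucose. This ratio is 1 of 10 between members that were computed, all picked with the values of the genes known, so they carry no test. In 9 of them the groups were apart.

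Of the 8 genes that lead from lanosterol to cholesterol, 3 rose (37.5%, against 13.3% of all genes tested) and 5 did not pass. Cyp51 encodes the lanosterol demethylase and lies on chromosome 5 (4081145 to 4104746). It had 54.8, 67.8 and 51.8 CPM at high glucose and 33.2, 21.1 and 27.8 CPM at low glucose, and rose by 1.08 ± 0.20 (edgeR adjusted p 0.00874). Msmo1, the methylsterol monooxygenase gene on chromosome 8 (64718139 to 64733792), had 46.7, 54.5 and 45.3 CPM at high glucose and 30.6, 17.5 and 17.5 CPM at low glucose. It rose by 1.15 ± 0.24 (edgeR adjusted p 0.0134), and did not pass without low glucose replicate 2 (1.03). Hsd17b7, the sterol ketone reductase gene on chromosome 1 (169949535 to 169969241), had 6.54, 9.49 and 9.57 CPM at high glucose and 4.94, 4.16 and 4.72 CPM at low glucose. It rose by 0.88 ± 0.24 (edgeR adjusted p 0.0331). The groups were apart for all 3 genes. The Hsd17b7 call was the least secure of the 3, being lost with limma-voom (0.82), with scaling to 13 islet hormone and granule genes (1.27), and without any library other than high glucose replicate 1.

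Tm7sf2, a gene for the sterol reductase step directly after the demethylase, had 1.95, 2.45 and 2.42 CPM at high glucose and 5.36, 4.99 and 2.20 CPM at low glucose. Its log2 fold change was -0.89 ± 0.38 (edgeR adjusted p 0.119), and it was called lower without low glucose replicate 3 (-1.17), the lowest of the low glucose libraries. Its log2 fold change had the opposite sign to those of Cyp51 and Msmo1 on either side of it, except with library totals (0.17). Tm7sf2 counts were low, at 55, 49 and 48 in the high glucose libraries and 64, 30 and 14 in the low glucose libraries. Of its exonic bases, 12.1% are shared with the gene Vps51 on the same strand, so its count is uncertain. Nsdhl, whose product works with those of Msmo1 and Hsd17b7 to remove methyl groups, had 8.91, 16.7 and 11.7 CPM at high glucose and 7.53, 7.15 and 9.59 CPM at low glucose. Its log2 fold change was 0.62 ± 0.28 and did not pass (edgeR adjusted p 0.132), but passed without high glucose replicate 1 (0.81). Ebp, the sterol isomerase gene, had 21.1, 18.6 and 18.04 CPM at high glucose and 20.3, 21.3 and 21.5 CPM at low glucose. Sc5d, the sterol desaturase gene, had 36.3, 57.5 and 49.5 CPM at high glucose and 37.2, 42.7 and 34.4 CPM at low glucose. Dhcr7, which encodes the reductase of the last step from dehydrocholesterol, had 11.3, 17.9 and 16.6 CPM at high glucose and 11.1, 16.1 and 13.5 CPM at low glucose. The groups overlapped for all 3 genes, with log2 fold changes of -0.12 ± 0.15, 0.32 ± 0.20 and 0.17 ± 0.24. Sc5d passed without high glucose replicate 1 (0.49). The ratio of Cyp51 to Dhcr7 per exonic length was 6.38, 5.002 and 4.10 within the high glucose libraries and 3.93, 1.72 and 2.71 within the low glucose libraries. That of Fdft1 to Ebp was 1.39, 1.79 and 1.68 at high glucose and 0.635, 0.713 and 0.570 at low glucose. These ratios owe nothing to the scaling between libraries. An exact permutation test of 3 against 3 libraries cannot go below p = 0.1.

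The promoters are shown for the members that rose and have an entry in the RefSeq promoter table (GRCm38.p6). Those of Hmgcs1, the only member searched that matched the sterol element, and of Insig1, the member that fell, are added. Entries were found for 24 of the 29 genes, including 4 of the 7 that rose. Fdft1, Sqle and Fdps, which rose, and Stard4 and Abcg1 had no entry and were not searched. Each window runs from 250 bases before the start to 50 from it on, 5′ to 3′ on the strand of the gene, and for Pmvk the first of its RefSeq starts is shown. Capitals mark 3 motifs searched on both strands: TCACNCCAC, the core of a sterol regulatory element bound by SREBP2, CCAAT, the site of NF-Y, and GGGCGG, the GC box of Sp1. NF-Y and Sp1 are known partners of SREBPs. The motifs share no bases in the windows printed here.
Hmgcs1 promoter, chr13:119690101-119690400, plus strand: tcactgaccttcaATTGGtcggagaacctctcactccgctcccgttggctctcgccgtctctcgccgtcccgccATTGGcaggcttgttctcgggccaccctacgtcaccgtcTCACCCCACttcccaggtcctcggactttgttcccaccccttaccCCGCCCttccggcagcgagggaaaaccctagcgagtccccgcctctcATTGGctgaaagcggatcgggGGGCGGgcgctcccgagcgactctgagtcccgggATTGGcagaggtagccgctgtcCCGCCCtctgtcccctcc
Cyp51 promoter, chr5:4104648-4104947, minus strand: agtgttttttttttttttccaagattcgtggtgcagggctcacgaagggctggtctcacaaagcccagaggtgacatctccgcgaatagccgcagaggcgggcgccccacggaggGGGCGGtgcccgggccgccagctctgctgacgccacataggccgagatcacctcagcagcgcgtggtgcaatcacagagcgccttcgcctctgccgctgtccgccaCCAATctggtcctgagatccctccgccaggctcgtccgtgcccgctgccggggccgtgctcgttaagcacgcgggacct
Msmo1 promoter, chr8:64733529-64733828, minus strand: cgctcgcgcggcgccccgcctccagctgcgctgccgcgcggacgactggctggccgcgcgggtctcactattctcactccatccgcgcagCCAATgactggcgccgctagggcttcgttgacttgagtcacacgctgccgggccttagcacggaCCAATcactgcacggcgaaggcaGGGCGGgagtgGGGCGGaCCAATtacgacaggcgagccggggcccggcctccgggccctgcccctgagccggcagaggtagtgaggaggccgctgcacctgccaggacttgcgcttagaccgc
Hsd17b7 promoter, chr1:169969156-169969455, minus strand: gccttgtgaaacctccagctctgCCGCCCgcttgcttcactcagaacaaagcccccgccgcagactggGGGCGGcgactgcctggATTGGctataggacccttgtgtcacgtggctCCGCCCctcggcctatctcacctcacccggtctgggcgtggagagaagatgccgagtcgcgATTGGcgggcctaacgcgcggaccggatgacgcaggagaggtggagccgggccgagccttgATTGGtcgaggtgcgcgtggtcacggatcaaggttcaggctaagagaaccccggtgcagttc
Pmvk promoter, chr3:89454291-89454590, plus strand: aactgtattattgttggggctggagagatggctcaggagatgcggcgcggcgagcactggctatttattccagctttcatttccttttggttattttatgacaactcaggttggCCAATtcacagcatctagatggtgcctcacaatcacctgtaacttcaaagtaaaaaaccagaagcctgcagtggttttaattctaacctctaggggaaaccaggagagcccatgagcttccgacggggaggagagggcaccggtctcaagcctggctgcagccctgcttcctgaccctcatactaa
Insig1 promoter, chr5:28071162-28071461, plus strand: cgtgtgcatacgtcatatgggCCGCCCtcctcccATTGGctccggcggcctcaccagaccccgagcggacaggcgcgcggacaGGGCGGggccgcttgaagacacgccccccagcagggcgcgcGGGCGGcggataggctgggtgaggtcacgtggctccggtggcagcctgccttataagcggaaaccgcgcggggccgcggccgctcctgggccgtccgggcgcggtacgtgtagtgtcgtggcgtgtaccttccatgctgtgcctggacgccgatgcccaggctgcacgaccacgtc
The Hmgcs1 window holds TCACCCCAC starting 137 bases before the start, 1 member of 24 against 1.44% of the 27025 genes with a window. A CCAAT box was found in 20 of the 24 members (83.3%), against 41.1% of all genes with a window, and a GC box in 21 of 24 (87.5%), against 38.2%. All 24 members passed the filter on low counts, which kept 13996 genes, whereas the 27025 genes include genes that did not. The shares among genes that passed were not computed, so the comparison is not matched for expression. Hsd17b7 and Msmo1 hold 3 CCAAT boxes each, Cyp51, Pmvk and Insig1 hold 1 each. Neither Nr1h3 window held any of the 3 motifs, and the Pmvk window held no GC box. The matches describe letters in the windows and not binding.

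Of the 5 genes that control SREBP processing or move sterols, Insig1 fell and 0 rose (DESeq2 called 1 higher, limma-voom 0; 1 was higher at an unadjusted p under 0.05 by edgeR). Insig1, itself a well-known SREBP2 target, lies on chromosome 5 (28071363 to 28078662). It had 28.4, 46.1 and 38.9 CPM at high glucose and 61.8, 73.8 and 78.5 CPM at low glucose. Every high glucose library was below every low glucose library, and Insig1 fell by 0.92 ± 0.21 (edgeR adjusted p 0.0164). The call was lost without high glucose replicate 3 (-0.93), low glucose replicate 2 (-0.88) or low glucose replicate 3 (-0.83), and with scaling to the islet hormone and granule genes (-0.54). With library totals the value was 0.24, below the median of 1.16 for all genes there. Insig2, the paralogue that is less dependent on SREBP2, had 27.98, 24.9 and 23.7 CPM at high glucose and 22.9, 28.3 and 27.0 CPM at low glucose. The Insig2 groups overlapped, with a log2 fold change of -0.03 ± 0.15.

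Within the libraries, the ratio of Insig1 to Insig2 counts per exonic length was 1.14, 2.08 and 1.84 at high glucose, against 3.03, 2.93 and 3.26 at low glucose. The ratio of Insig1 to Fdft1, a retention factor against an enzyme, was 0.722, 1.03 and 0.962 at high glucose and 3.59, 3.63 and 4.77 at low glucose. It averaged 0.905 ± 0.163 at high and 3.999 ± 0.667 at low glucose (SD, n = 3 each). Insig1, the member that fell, was set over the member with the smallest adjusted p among those that rose, so that the groups lie apart follows from the choice and is given as a description.

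**Figure D2:**
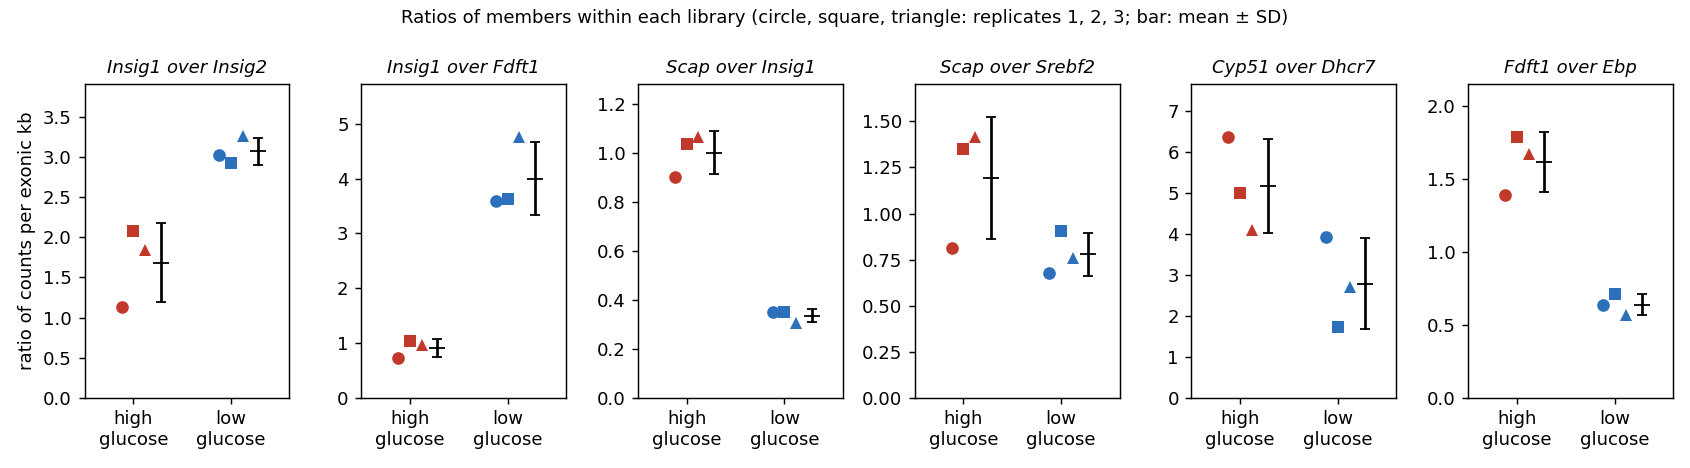
Ratios of counts per exonic kilobase between pairs of the 29 genes within each library, at high glucose (red, left) and low glucose (blue, right), with the mean ± SD of 3 libraries as a bar; each axis starts at 0. The ratio of Insig1 to Fdft1 is 0.722 to 1.03 at high glucose and 3.59 to 4.77 at low glucose, and that of Scap to Insig1 is 0.902 to 1.07 at high glucose and 0.306 to 0.353 at low glucose, whereas that of Scap to Srebf2 overlaps.

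Srebf2, which encodes SREBP2, had 73.0, 82.3 and 68.1 CPM at high glucose and 74.3, 67.0 and 73.7 CPM at low glucose. The groups overlapped and the log2 fold change was 0.06 ± 0.14 (edgeR adjusted p 0.802). Scap, the SREBP escort gene, had 61.6, 115 and 100.1 CPM at high glucose and 52.0, 62.7 and 57.9 CPM at low glucose. High glucose replicate 1 lay below low glucose replicate 2, the other high glucose libraries above all low glucose ones, and the log2 fold change was 0.68 ± 0.24 (edgeR adjusted p 0.0711). With the replicate number as a block Scap passed (0.64, edgeR adjusted p 0.0350), and it passed without high glucose replicate 1 (0.91) and with DESeq2 (0.68). The ratio of Scap to Insig1 per exonic length was 0.902, 1.04 and 1.07 at high glucose and 0.349, 0.353 and 0.306 at low glucose, a pair likewise picked with the values known. That of Scap to Srebf2 was 0.813, 1.35 and 1.42 at high glucose and 0.675, 0.903 and 0.757 at low glucose, and overlapped between the groups. Stard4, which encodes a soluble carrier of cholesterol between membranes, had 10.7, 9.49 and 10.2 CPM at high glucose and 22.0, 14.0 and 10.1 CPM at low glucose. Low glucose replicate 3 lay among the high glucose values, and the log2 fold change of -0.61 ± 0.28 did not pass (edgeR adjusted p 0.147).

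None of the 5 genes for the uptake brake, efflux, LXR and esterification passed by edgeR. At an unadjusted p under 0.05, 1 was lower by edgeR, and DESeq2 called 1 and limma-voom 0. The export pump gene Abca1 had 52.7, 31.7 and 31.2 CPM at high glucose and 47.5, 31.4 and 36.5 CPM at low glucose. The group means were 38.5 ± 12.3 CPM at high glucose and 38.5 ± 8.197 CPM at low glucose (SD, n = 3 each), and replicate 1 was the highest library of each group. Abcg1, the pump that loads cholesterol onto high-density lipoprotein, had 54.6, 29.7 and 34.7 CPM at high glucose and 25.9, 28.1 and 29.6 CPM at low glucose. Its groups were apart by a margin of 29.7 against 29.6 CPM, and its log2 fold change was 0.51 ± 0.24 (edgeR adjusted p 0.143). Nr1h3, the gene of LXR-alpha, had 9.98, 8.69 and 11.4 CPM at high glucose and 13.2, 16.96 and 14.6 CPM at low glucose. All high glucose libraries were below all low glucose libraries, as for 22.4% of all genes tested, with a log2 fold change of -0.57 ± 0.19 and an edgeR adjusted p of 0.0613. DESeq2 called Nr1h3 lower (-0.58).

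Mylip encodes the ubiquitin ligase IDOL, which marks lipoprotein receptors for degradation and is an LXR target. It had 17.8, 8.24 and 10.2 CPM at high glucose and 6.70, 8.15 and 10.1 CPM at low glucose, and the log2 fold change of 0.55 ± 0.33 did not pass (edgeR adjusted p 0.244). Soat1, the enzyme gene that stores cholesterol as esters, had 24.9, 14.8 and 16.5 CPM at high glucose and 18.6, 19.4 and 19.7 CPM at low glucose and a log2 fold change of -0.03 ± 0.22. High glucose replicate 1 was the highest high glucose library for Mylip, Abca1, Abcg1 and Soat1. Over the 19 synthesis enzymes that library was instead the lowest of its group for 11 genes, and high glucose replicate 2 was the highest for 11. In that library macrophage and leukocyte markers took 0.0860% of counts, against 0.0119% and 0.0281% in high glucose replicates 2 and 3, and endocrine hormone and granule genes took 10.5%, against 3.93% and 4.56%. Stellate and fibroblast markers took 0.0474% there, against 0.00606% and 0.0104%, and endothelial markers 0.0554%, against 0.0204% and 0.0297%. The part of these cells in the levels of the 4 genes was not tested.

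**Figure D3:**
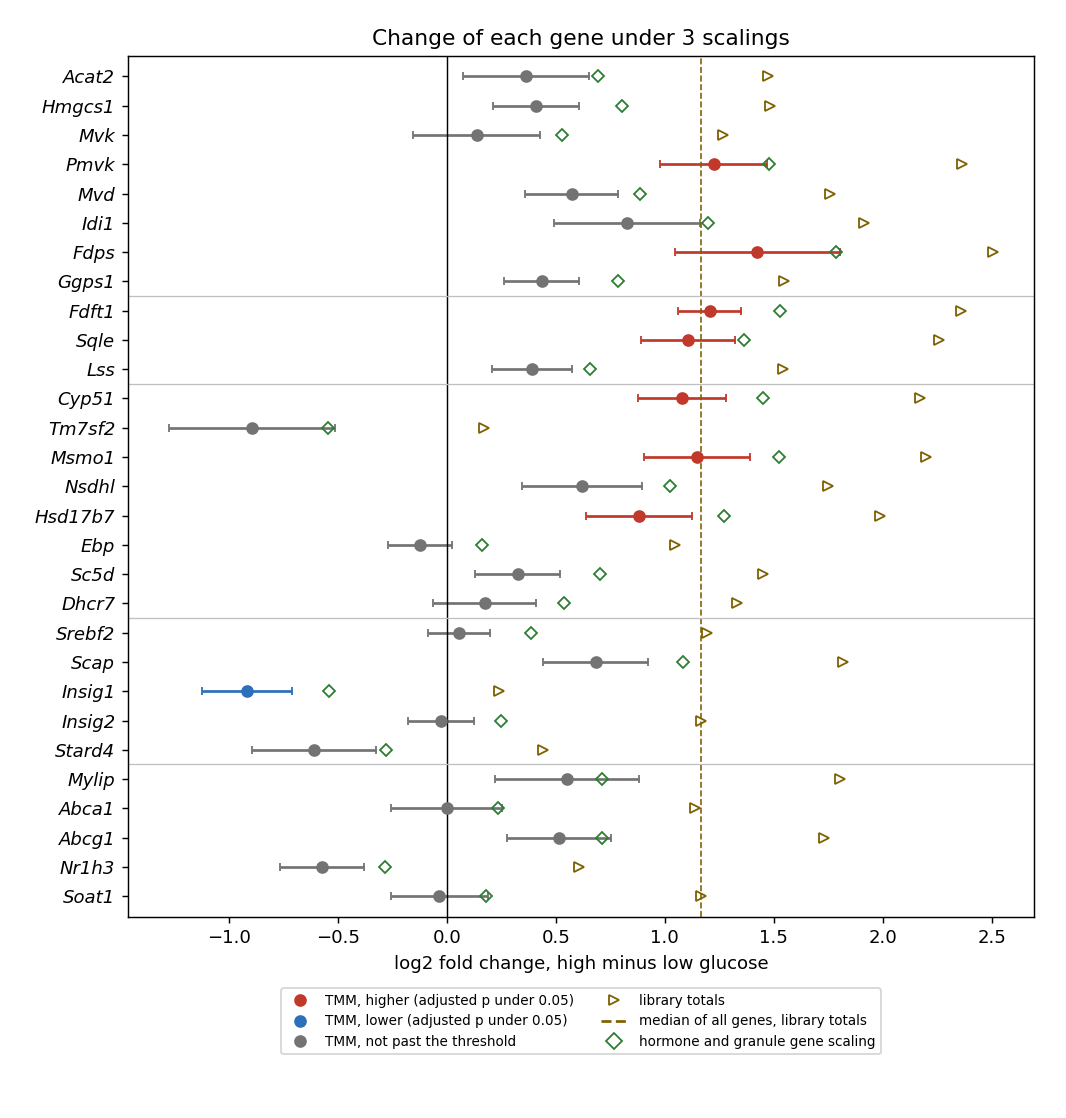
Log2 fold change (high minus low glucose) of each of the 29 genes in pathway order; filled circles with bars are TMM values ± SE, triangles are values with library totals and diamonds are values scaled to islet hormone and granule genes. Library totals shift all genes (dashed line, median 1.16), and Insig1, at -0.92 with TMM scaling, is at 0.24 there, left of that line, whereas Fdft1 is at 2.36.

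Per exonic kilobase, and averaged over the 3 libraries of a group, Sqle was the most abundant member at high glucose (14.3 CPM per kb), followed by Fdft1 (13.4), Hmgcs1 (13.4), Cyp51 (13.2) and Pmvk (12.7). The library values of these 5 genes overlapped. At low glucose Insig1 came first at 23.1 CPM per kb, above the range of any other member, followed by Hmgcs1 (10.05) and Srebf2 (9.98), whose library values overlapped. Insig1 was at 12.2 CPM per kb at high glucose, where it ranked 7, and Sqle was at 6.64 at low glucose, where it ranked 8. Fdps had the lowest value of the members in both groups, at 0.436 CPM per kb at high and 0.156 at low glucose. Its count is uncertain, since 26.7% of its exonic bases are shared with Gm43738 on the same strand, so this rank may not reflect its abundance. The spread between libraries was similar in both groups, with a median coefficient of variation over the 29 genes of 18.8% at high glucose and 16.6% at low glucose (n = 3 each).

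A further 71 genes of sterol metabolism in 6 lists were followed, of which 69 passed the filter on low counts. Of these, 5 rose and 15 fell (7.25% and 21.7%, against 13.3% and 14.2% of all genes tested), with a median log2 fold change of 0.06. These counts were 11 and 19 without high glucose replicate 1, and 3 and 8 without high glucose replicate 3. They were 3 and 12 without low glucose replicate 1, and 1 and 7 without low glucose replicate 2. Calls over all genes moved as well, to 5685, 1999, 2683 and 1743 changed genes in the same order, against 3848 with every library. Among 20 genes of lipoprotein uptake and sterol transport within cells 3 rose and 2 fell. The gene of the lysosomal membrane protein LIMP2, Scarb2, rose by 0.74 ± 0.16, and the lipoprotein receptor gene Vldlr by 0.63 ± 0.14. The sorting receptor gene Sort1 fell by 1.33 ± 0.18 and was not called with library totals (-0.15). Among 9 regulators of SREBP processing 1 fell, Mbtps1, the gene of the Golgi protease that makes the first cut in SREBP. It had 58.5, 52.2 and 49.5 CPM at high glucose and 82.2, 83.4 and 80.7 CPM at low glucose, and fell by 0.62 ± 0.13 (edgeR adjusted p 0.0144). With library totals its value was 0.54, again below the median of all genes.

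In the branch from farnesyl diphosphate to prenylated proteins, ubiquinone and dolichol, 1 of 14 genes rose (7.14%, against 13.3% of all genes tested) and 0 fell (median 0.19). It was Rabggta, a subunit gene of the enzyme that prenylates Rab proteins, which rose by 1.03 ± 0.24. Of 6 genes for acetyl-CoA supply and the mitochondrial relatives of the first enzymes, 4 fell (66.7%, against 14.2% of all genes tested, median -0.71). The mitochondrial thiolase genes Acaa2 and Acat1 fell by 1.91 ± 0.30 and 1.24 ± 0.23. The cytosolic Acat2 had a log2 fold change of 0.36 ± 0.29, which did not pass. With library totals neither thiolase gene that fell nor the acetyl-CoA synthetase gene Acss2, which also fell, was called (Acat1 0.01, Acaa2 -0.86, Acss2 0.33).

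Of 10 tested LXR partners and other sterol exporters 4 fell (40%, against 14.2% of all genes tested). The intestinal and hepatic sterol export pair Abcg5 and Abcg8 was nearly without counts at high glucose. Abcg5 had 3, 3 and 2 counts at high glucose and 309, 160 and 40 at low glucose (edgeR adjusted p 0.00111), and Abcg8 had 2, 0 and 1 counts at high glucose and 270, 156 and 32 at low glucose (edgeR adjusted p 0.00137). Intestinal markers ran beside them: all 13 tested of 15 were lower at high glucose, and the brush border gene Sis had 4, 0 and 0 counts at high glucose and 2998, 737 and 324 at low glucose. The part of intestinal epithelium in the Abcg5 and Abcg8 counts was not tested. Rxra, the gene of the receptor that pairs with LXR, fell by 0.81 ± 0.16 (edgeR adjusted p 0.0103; 0.36 and not called with library totals). Of 10 tested genes for sterol esters, oxysterols and bile acid steps 1 rose and 4 fell (10% and 40%, against 13.3% and 14.2% of all genes tested). Hsd3b7, a bile acid synthesis gene, rose by 2.56 ± 0.45, with 161, 76 and 116 counts at high glucose and 14, 6 and 2 at low glucose. Lcat, the plasma cholesterol esterification gene, fell by 4.0 ± 0.48, and the sterol sulfotransferase gene Sult2b1 fell by 2.59 ± 0.50 and was not called with library totals (-1.57). Cel, the cholesterol esterase gene on this list, is also an acinar marker and fell with the acinar markers.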

How the data were processed

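The authors deposited raw read counts per Ensembl gene, 1 column per library, with no normalization; STAR 2.7.3a and HTSeq 0.6.1p1 with GRCm38 are named in the submitters' processing notes. Strand setting, annotation release and barcode use are not given in the sources used here, so overlapping genes are uncertain. Columns were matched to samples by name, and 46488 of 46983 genes were named from GENCODE M21. High and low glucose were compared over all genes with edgeR 4.0.16 (quasi-likelihood F-test, R 4.3.3), TMM scaling and filterByExpr (minimum count 10, minimum total 15), which kept 13996 genes. Each SE is the absolute log2 fold change over the square root of F. The pairing of replicate numbers comes from the data: deviations from group means of same-numbered libraries correlated at 0.40, 0.26 and 0.25. Those of differently numbered libraries correlated at -0.31 to 0.07. No label states the pairing, and the main test does not use it. The block was an alternative.

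The 29 genes, the 71 further genes and 94 marker genes were chosen with earlier results of these data known. All 29 genes were named, and of each further list up to 3 called genes with the smallest p (Cel and Acss2 are named besides, chosen after their values were seen). Alternatives were other scalings and filters, DESeq2 1.42.0, limma-voom (limma 3.58.1), the block, and each library left out. Counts per exonic length used the union of GENCODE exons. Some sterol genes are not reported here.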

Additional observations from a re-analysis of the deposited data

How the results depend on the processing

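The 29 genes were refitted under 16 alternatives, 464 values in all, of which 395 kept their direction and side of the threshold, 19 lost and 22 gained a call with the same sign, and 28 changed sign, of which 1 lost (Insig1) and 4 gained a call. Pmvk, Fdft1 and Cyp51 were called under all 16. The count of higher genes was 25 with library totals and 3 to 10 with 1 library left out; that of lower genes was 2 with DESeq2, 0 in edgeR with library totals and 0 when scaled to the islet hormone and granule genes (0 at an unadjusted p under 0.05 in both), and 0 to 1 with 1 library left out. Of the 71 further genes, 40 were higher and 4 lower with library totals, 3 and 7 with hormone gene scaling, and 8 higher with no low-count filter; with 1 library left out 1 to 11 were higher and 7 to 19 lower. Over all genes 8965 changed with library totals, 2155 with hormone gene scaling and 1743 (without low glucose replicate 2) to 5685 (without high glucose replicate 1) with 1 library left out, against 3848. With the replicate block 8 members were higher and 1 lower, Scap being the only change of call (0.64), and over all genes 4670 changed. In the tests of single genes, the sign changed with library totals for Insig1 (0.24), Tm7sf2 (0.17), Ebp (1.05), Insig2 (1.17), Stard4 (0.44), Abca1 (1.14), Nr1h3 (0.61) and Soat1 (1.16), none above the median shift of 1.16 by more than 0.01. With hormone gene scaling it changed for Ebp (0.16), Insig2 (0.25), Abca1 (0.24) and Soat1 (0.18), and with no low-count filter for Insig2 (0.070), Abca1 (0.093) and Soat1 (0.061). Abca1 was at 0.0091 without the 20 most abundant genes and at 0.0058 without the acinar and intestinal markers. With 1 library left out, values crossed 0 for Mvk (-0.10 to 0.36), Srebf2 (-0.014 to 0.13), Insig2 (-0.11 to 0.049), Abca1 (-0.30 to 0.19) and Soat1 (-0.29 to 0.12). Insig1 is the only one of these with a call in the TMM fit; the cause of these changes was not tested beyond the shift that library totals give to all genes. Depth limits Fdps and Idi1 most, with 3 to 66 counts a library. Tm7sf2, at 14 to 64 counts, and Acat2, at 13 to 95, were also low.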
